A study of Mus musculus with 6 samples.

Results

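The genes described here are 4 chemokines of cytotoxic lymphocytes and myeloid cells, Ccl3, Ccl4, Ccl5 and Xcl1, and 2 chemokine receptors, Ccr1 and Xcr1. They were taken as a set of ligands with their receptors and are 6 of the 32286 genes counted. Their unique molecular identifiers (UMIs, 1 per captured transcript) were read in droplet libraries of sorted CD45hi mouse liver immune cells. Barcodes were kept with at least 500 genes, at least 1000 gene UMIs and at most 10% of UMIs from mitochondrial genes. Source cells and receptor cells were then assigned library by library from marker UMIs, and none of the 6 genes was among those markers.

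The study asked how hepatic bile acid synthesis bears on T cells in liver cancer, and there is 1 mRNA library per group. The first group is labelled AAV-sgBaat, adeno-associated virus carrying a guide against Baat, the enzyme that joins bile acids to amino acids. The second is AAV-sgSCR, the same kind of virus with the control guide, and the third is mock. All 3 were taken at day 30 after infection, and each is a pool of 3 tumor samples. The labels call the mock library native liver while the design text speaks of tumor bearing livers, so whether the mock livers carried tumors is not clear from them. Strain, sex, age, the promoters on the viral vectors and the origin of the CD90.1 cells were not given in the sources used here. With 1 library a group there is no replicate spread, so no test is given. The intervals printed are exact 95% intervals for counting error only, and values set side by side compare these libraries, not the conditions.

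Chemokines are small secreted proteins that draw leukocytes along a gradient through G protein-coupled receptors. CCL3 and CCL4 (macrophage inflammatory proteins 1-alpha and 1-beta) and CCL5 (RANTES) are released by activated T cells, NK cells and myeloid cells. CCL3 and CCL5 are ligands of CCR1. XCL1 (lymphotactin) is made by NK cells and CD8 T cells, and its receptor XCR1 marks conventional dendritic cells of type 1, which present antigen to CD8 T cells. In liver tumors these chemokines are studied for the way lymphocytes bring in dendritic cells and granulocytes.

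In mouse build mm10 (GRCm38), Ccl3 (ENSMUSG00000000982) lies on chromosome 11 at 83647843 to 83649378 and Ccl4 (ENSMUSG00000018930) at 83648624 to 83664683, so the annotated spans overlap. The strand setting of the counting is not given in the sources used here, so reads from the shared stretch could have been assigned to either gene. Ccl5 (ENSMUSG00000035042) lies on the same chromosome at 83525778 to 83530518. Xcl1 (ENSMUSG00000026573) lies on chromosome 1 at 164931644 to 164935522. The receptor genes both lie on chromosome 9, Ccr1 (ENSMUSG00000025804) at 123962126 to 123968692 and Xcr1 (ENSMUSG00000060509) at 123852315 to 123862029.

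The promoters of Ccl3 and Xcl1 are shown because these 2 ligands were led by different cells. Each line is the 250 bases before the RefSeq start on GRCm38.p6, read on the minus strand, chr11:83649379-83649628 for Ccl3 and chr1:164935523-164935772 for Xcl1. All bases are as in RefSeq, and capitals mark TGTGGT, the core of RUNX sites, and GGTGTGA, the core of T-box sites, on either strand.
Ccl3: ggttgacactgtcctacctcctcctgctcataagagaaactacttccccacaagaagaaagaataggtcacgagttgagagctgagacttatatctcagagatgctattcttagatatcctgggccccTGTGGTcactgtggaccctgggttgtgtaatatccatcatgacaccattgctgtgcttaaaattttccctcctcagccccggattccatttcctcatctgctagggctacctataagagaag
Xcl1: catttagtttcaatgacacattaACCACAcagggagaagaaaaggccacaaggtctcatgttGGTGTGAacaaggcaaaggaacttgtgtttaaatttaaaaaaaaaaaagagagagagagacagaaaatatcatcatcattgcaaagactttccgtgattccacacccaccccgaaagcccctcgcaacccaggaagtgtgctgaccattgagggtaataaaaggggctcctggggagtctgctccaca
TGTGGT was present 1 time in each window, starting 122 bases before the start of Ccl3 and 227 bases before that of Xcl1, there on the opposite strand. GGTGTGA was found 1 time, 188 bases before the start of Xcl1. TGANTCA, the core of AP-1 sites, was in neither window. The 3 motifs do not overlap one another in these windows. Among 32851 RefSeq windows of the same length, 14.0% held TGTGGT, 3.33% held GGTGTGA and 6.75% held TGANTCA, so the matches are a description and not sites.

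The filter kept 7094 of 9386 barcodes in AAV-sgBaat, 7332 of 8073 in AAV-sgSCR and 6068 of 6431 in mock. Median depth was 3811.5 gene UMIs in AAV-sgBaat, 5911 in AAV-sgSCR and 4164 in mock. Barcodes passing panels of more than 1 lineage (mixed-lineage) were held apart and made up 25.4% in AAV-sgBaat, 19.0% in AAV-sgSCR and 6.36% in mock. The libraries shared 10 to 25 barcodes by pair. The named classes were defined by marker panels chosen here, mostly of lymphocytes and myeloid cells, in cells labelled as sorted CD45hi. B cell-like barcodes numbered 390 in AAV-sgBaat, 718 in AAV-sgSCR and 2890 in mock. The AAV-sgBaat library also held 874 immature T cell-like barcodes with Dntt and Arpp21, against 95 in AAV-sgSCR and 0 in mock. In CD8 T cell-like barcodes, the summed macrophage panel (5 genes) was 115 CPM (UMIs per 1000000 gene UMIs of the class) in AAV-sgBaat, 23.5 CPM in AAV-sgSCR and 1.13 CPM in mock, and 0, 0 and 1 of its markers were at 0. Over filtered barcodes, Ccl5 had 95261, 229955 and 98304 UMIs in AAV-sgBaat, AAV-sgSCR and mock. In the same order Ccl4 had 16232, 15098 and 17957 UMIs and Ccl3 had 10525, 8718 and 7655. Xcl1 had 4938, 11097 and 7005 UMIs. The receptors were sparser, with 1670, 3895 and 124 UMIs of Ccr1 and 111, 1331 and 105 of Xcr1.

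The cells holding these transcripts differed by gene and by library. Of all Ccl3 UMIs, natural killer (NK) and ILC1-like barcodes, innate cytotoxic lymphocytes, held 4.79% in AAV-sgBaat, 6.21% in AAV-sgSCR and 50.7% in mock. CD8 T cell-like barcodes held 9.43% of Ccl3 UMIs in AAV-sgBaat, 24.3% in AAV-sgSCR and 8.23% in mock. Basophil and mast cell-like barcodes, 105 in AAV-sgBaat, 66 in AAV-sgSCR and 8 in mock, held 17.1%, 9.91% and 7.26% of the Ccl3 UMIs of those libraries. The largest single holder of Ccl3 in both AAV libraries was the mixed-lineage set, with 51.8% in AAV-sgBaat and 43.7% in AAV-sgSCR, against 16.8% in mock. Xcl1 outside the mixed-lineage set (28.2% in AAV-sgBaat, 27% in AAV-sgSCR and 13% in mock) was held mostly by T and NK cell classes. CD8 T cell-like barcodes held 26.0% of all Xcl1 UMIs in AAV-sgBaat, 44.9% in AAV-sgSCR and 7.98% in mock. For Xcr1, dendritic cell classes held 64.0% of UMIs in AAV-sgBaat, 76.0% in AAV-sgSCR and 66.7% in mock. CD45hi CD3+ T cells and the remaining CD45hi cells were sorted before loading, so these shares also depend on how many of each were run.

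**Figure D1:**
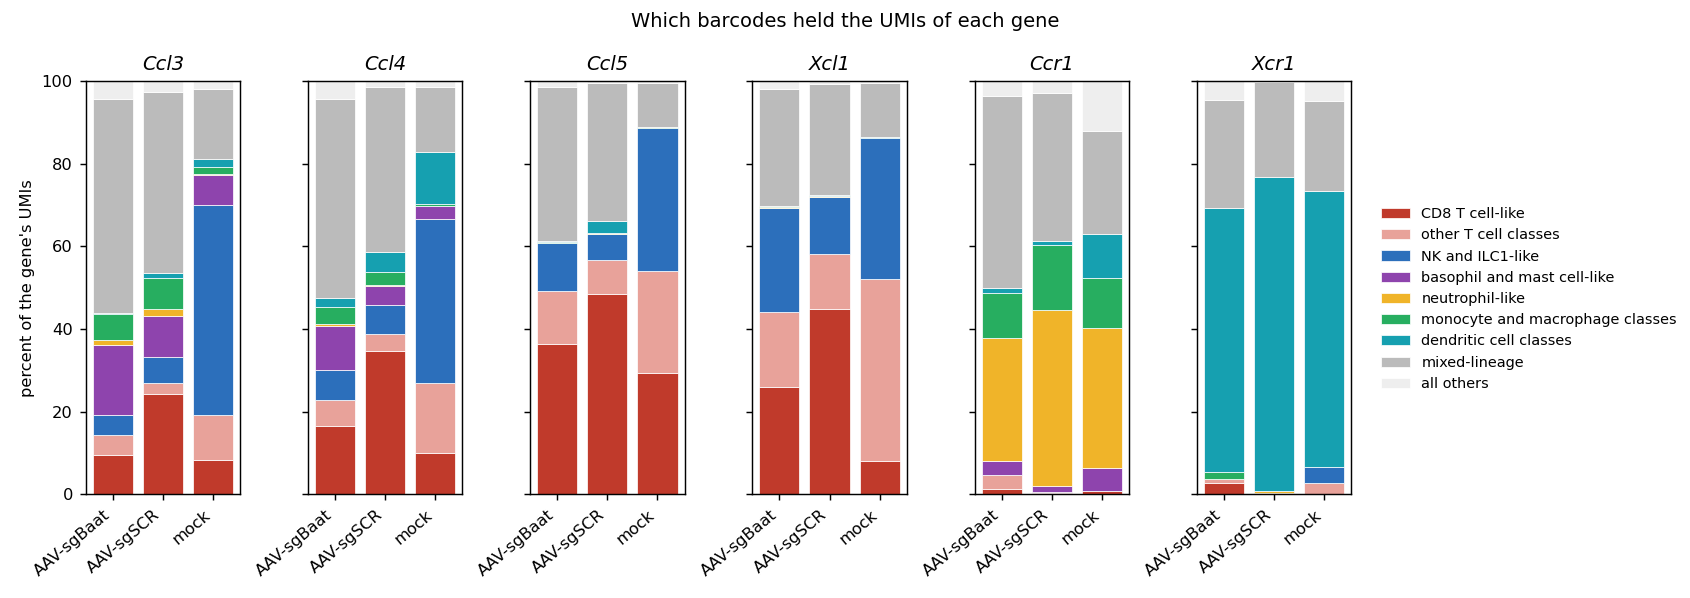
Stacked bars give the percent of each gene's UMIs over filtered barcodes (vertical axis) held by groups of cell classes, for AAV-sgBaat, AAV-sgSCR and mock (horizontal axis). NK and ILC1-like barcodes fill 50.7% of the Ccl3 bar in mock, while the mixed-lineage set fills 51.8% in AAV-sgBaat and 43.7% in AAV-sgSCR.

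Ccl3, the first ligand, was high in NK cells and highest per class in basophil and mast cell-like barcodes. In Ly49-positive NK-like barcodes, mature NK cells, Ccl3 stood at 1072 CPM (963 to 1189.9, 101 barcodes) in AAV-sgBaat, 495 CPM (433 to 563, 113 barcodes) in AAV-sgSCR and 1901 CPM (1837 to 1967, 428 barcodes) in mock. The 3 intervals do not overlap, with mock highest and AAV-sgSCR lowest. AAV-sgBaat over AAV-sgSCR gave a log2 ratio of 1.12 (0.87 to 1.36), past 2-fold, as did 7% of the 4546 genes with at least 20 UMIs over both libraries in that class. AAV-sgSCR over mock gave -1.94 (-2.14 to -1.75), where 13% of genes were past 2-fold, and AAV-sgBaat over mock gave -0.83 (-0.99 to -0.67). At least 1 Ccl3 UMI was found in 64.4% of these barcodes in AAV-sgBaat, 51.3% in AAV-sgSCR and 84.3% in mock, at median depths of 2824, 3619 and 3774 UMIs. B cell-like barcodes, a class taken as background, had Ccl3 in 2.05%, 1.81% and 3.01%, at median depths of 2128, 2896.5 and 3437 UMIs.

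In Ly49-negative NK and ILC1-like barcodes, which include tissue-resident cells, Ccl3 was lower in both AAV libraries than in mock. It stood at 333 CPM (282 to 391, 131 barcodes) in AAV-sgBaat, 392 CPM (349 to 438, 155 barcodes) in AAV-sgSCR and 917 CPM (842 to 996, 125 barcodes) in mock. The AAV libraries overlap here, with a log2 ratio of -0.23 (-0.52 to 0.05) for AAV-sgBaat over AAV-sgSCR, where 5.61% of genes were past 2-fold. Against mock the log2 ratio was -1.46 (-1.73 to -1.20) for AAV-sgBaat and -1.23 (-1.43 to -1.02) for AAV-sgSCR, where 11.7% of genes were past 2-fold. So the Ccl3 ratio between the AAV libraries was 2.17-fold in 1 NK class and spanned 0 on the log2 scale in the other. Whether the 2 classes differ was not tested. They were split by whether a barcode held any UMI of the Ly49 genes Klra4, Klra8, Klra9 and Klra3. The Ly49-negative class can thus include cells whose Ly49 RNA was not captured. Its median depth was 3443 UMIs in AAV-sgBaat, 4742 in AAV-sgSCR and 4716 in mock.

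In CD8 T cell-like barcodes, which held 867 cells in AAV-sgBaat, 1792 in AAV-sgSCR and 556 in mock, Ccl3 moved less. Its level was 285 CPM (267 to 303) in AAV-sgBaat, 209 CPM (200.2 to 218) in AAV-sgSCR and 178 CPM (164 to 192) in mock. The intervals do not overlap, and the log2 ratio of AAV-sgBaat over AAV-sgSCR was 0.45 (0.34 to 0.56). An interval wholly above 0 was found for 16.6% of the 11089 genes of this comparison and wholly below 0 for 15%, and 9.3% were past 2-fold, so an interval that excludes 0 is common here. The sum rested on few cells, since the 10% of barcodes with the most Ccl3 held 81% of it in AAV-sgBaat, 68.2% in AAV-sgSCR and 91.6% in mock. Without the 1 barcode of each library with the most Ccl3, which held 11.8% of it in AAV-sgBaat and 1.79% in AAV-sgSCR, the log2 ratio was 0.29 (0.18 to 0.41). With each barcode thinned to 1000 UMIs, Ccl3 was seen in 15.2% of cells in AAV-sgBaat, 13.3% in AAV-sgSCR and 6.83% in mock, whereas unthinned shares were 26.6%, 34.7% and 17.8%. Leaving out barcodes with a macrophage panel UMI kept 704, 1636 and 552 cells, and Ccl3 then stood at 275, 209 and 175 CPM in AAV-sgBaat, AAV-sgSCR and mock.

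Basophil and mast cell-like barcodes, rare granulocytes with Mcpt8, Cpa3 and Ms4a2, gave the highest class level of Ccl3. It was 3674 CPM (3506 to 3848) in 105 AAV-sgBaat barcodes and 1055 CPM (986 to 1128) in 66 AAV-sgSCR barcodes. The log2 ratio was 1.80 (1.68 to 1.92), in a comparison where 14.5% of genes were past 2-fold. These 2 sets of barcodes differed in makeup, since the summed basophil panel (6 genes) was 36643 CPM in AAV-sgBaat against 11447 in AAV-sgSCR and the neutrophil panel (6 genes) 2221 and 286 CPM. Among barcodes with at least 100 panel UMIs (27 of AAV-sgBaat, 22 of AAV-sgSCR) Ccl3 was 2825 CPM against 2109.5 CPM and the log2 ratio was 0.42. It was 0.92 with barcodes thinned to 1000 UMIs and 1.15 without barcodes above the 98th percentile of gene UMIs. The 8 mock barcodes of this class had 556 Ccl3 UMIs and are too few for a ratio.

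Phagocytes carried Ccl3 at lower levels. Macrophage-like barcodes had 342 CPM (298 to 389.7) in AAV-sgBaat and 245 CPM (203 to 293) in AAV-sgSCR. The log2 ratio was 0.48 (0.15 to 0.81), where 8.65% of genes were past 2-fold, and 0.20 (-0.54 to 0.98) with barcodes thinned to 1000 UMIs. Classical monocyte-like barcodes, the circulating precursors of macrophages, had 223 CPM (200.4 to 248) in AAV-sgBaat, 123 CPM (111 to 135) in AAV-sgSCR and 195 CPM (158 to 237) in mock. For AAV-sgBaat over AAV-sgSCR that is a log2 ratio of 0.86 (0.65 to 1.07), where 5.57% of genes were past 2-fold. Neutrophil-like barcodes, short-lived granulocytes, had 62.5 CPM (51.8 to 74.8) in AAV-sgBaat and 31.1 CPM (26.4 to 36.5) in AAV-sgSCR, a 2.01-fold difference, where 7.67% of genes were past 2-fold. Across the 15 classes with enough cells and UMIs, Ccl3 had an interval above 0 in 10 and below 0 in 0 for AAV-sgBaat over AAV-sgSCR. Of the 3443 genes measured in at least 15 classes, 1.66% had an interval above 0 in at least 10. Against mock, the interval was above 0 in 2 and below 0 in 5 of 9 classes for AAV-sgBaat, and above 0 in 2 and below 0 in 7 of 9 for AAV-sgSCR; these comparisons share the mock library. At least as many intervals below 0 were found for 10.9% of genes measured in at least 9 classes for AAV-sgBaat over mock and for 4.33% for AAV-sgSCR over mock.

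**Figure D2:**
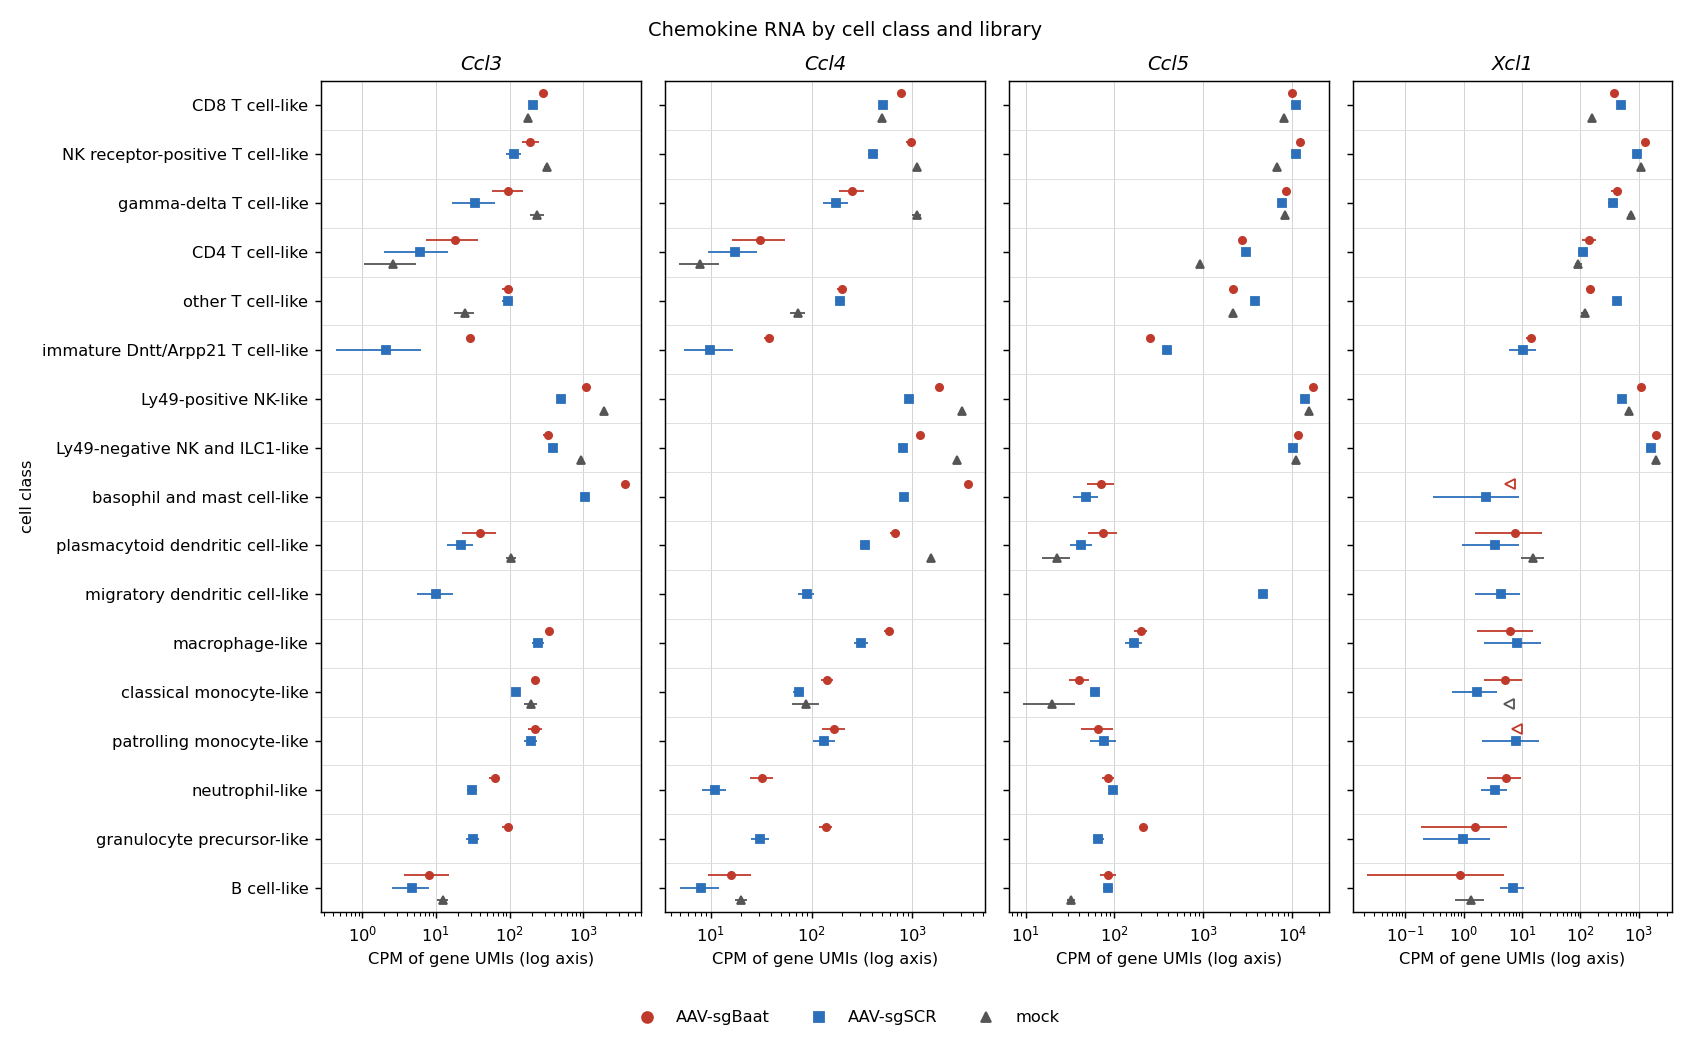
CPM of each chemokine (horizontal log axes) by cell class with at least 50 barcodes (vertical axis) in AAV-sgBaat (circles), AAV-sgSCR (squares) and mock (triangles). Bars are exact Poisson 95% intervals for counting error, and open left-pointing triangles mark 0 UMIs drawn at the level of 3 UMIs. Ccl3 and Ccl4 in NK classes lie furthest right in mock, and Xcl1 in B cell-like, dendritic and other myeloid classes lies at or below 15.5 CPM.

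Ccl4 in AAV-sgBaat lay above AAV-sgSCR in both NK classes, whereas Ccl3 did so in the Ly49-positive class alone. Ccl4 was also found in cells with little Ccl3. In Ly49-positive NK-like barcodes it stood at 1843 CPM (1699.6 to 1996) in AAV-sgBaat, 929 CPM (844 to 1021) in AAV-sgSCR and 3118 CPM (3035 to 3202) in mock. Ly49-negative NK and ILC1-like barcodes had 1198 CPM (1099.6 to 1303) in AAV-sgBaat, 809 CPM (748 to 874) in AAV-sgSCR and 2756 CPM (2626 to 2891) in mock. In both NK classes the 3 intervals were apart, with mock highest and AAV-sgSCR lowest. For AAV-sgBaat over AAV-sgSCR the log2 ratio was 0.99 (0.81 to 1.17) in the Ly49-positive class and 0.57 (0.40 to 0.73) in the Ly49-negative class. With barcodes thinned to 1000 UMIs these were 0.64 and 0.21, and the second then spans 0 (-0.10 to 0.52). Ccl4 UMIs per Ccl3 UMI in the Ly49-negative class were 3.6 (3.0 to 4.34) in AAV-sgBaat, 2.06 (1.80 to 2.37) in AAV-sgSCR and 3.01 (2.73 to 3.31) in mock. For AAV-sgSCR over mock the Ccl4 log2 ratio was -1.75 (-1.89 to -1.60) in the Ly49-positive class and -1.77 (-1.90 to -1.64) in the Ly49-negative class. Ccl4 was therefore lower past 2-fold in AAV-sgSCR than in mock in both NK classes.

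Among T cells, too, the Ccl4 level of AAV-sgBaat lay above that of AAV-sgSCR. CD8 T cell-like barcodes had 769 CPM (739.8 to 798) in AAV-sgBaat, 515 CPM (501 to 529) in AAV-sgSCR and 502 CPM (479 to 526) in mock. The AAV-sgSCR and mock intervals overlap and AAV-sgBaat lies above both, with a log2 ratio of 0.58 (0.51 to 0.64) over AAV-sgSCR. At 1000 UMIs a barcode, however, the share of CD8 T cell-like barcodes with Ccl4 was 26.8% in AAV-sgBaat and 26.7% in AAV-sgSCR, against 17.4% in mock (43.1%, 52% and 29.9% before thinning). The B cell-like share was 2.05%, 2.23% and 4.5% before thinning. So the AAV libraries differed in Ccl4 UMIs more than in the share of cells with Ccl4, and the 10% of barcodes with the most Ccl4 held 75.1% of it in AAV-sgBaat, 60.1% in AAV-sgSCR and 84.2% in mock. Without the 1 barcode of each library with the most Ccl4 the log2 ratio was 0.44 (0.37 to 0.51). Without barcodes holding a macrophage panel UMI, Ccl4 in CD8 T cell-like barcodes was 734, 517 and 496 CPM in the 3 libraries.

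NK receptor-positive T cell-like barcodes, innate-like T cells, had 974 CPM of Ccl4 (865 to 1093, 87 barcodes) in AAV-sgBaat, 406 CPM (359 to 458, 125 barcodes) in AAV-sgSCR and 1122 CPM (1078 to 1167, 392 barcodes) in mock. AAV-sgBaat over AAV-sgSCR gave a log2 ratio of 1.26 (1.02 to 1.51), where 8.2% of genes were past 2-fold. Gamma-delta T cell-like barcodes had 252 CPM (187 to 332) in AAV-sgBaat, 175 CPM (130.2 to 229.9) in AAV-sgSCR and 1105 CPM (1001 to 1217) in mock. In these cells the mock library stood above both AAV libraries, which overlap each other.

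Plasmacytoid dendritic cell-like barcodes, the interferon-producing dendritic cells, held Ccl4 with little Ccl3. Their Ccl4 level was 674 CPM (596 to 759.5, 77 barcodes) in AAV-sgBaat, 337 CPM (304 to 372, 128 barcodes) in AAV-sgSCR and 1541 CPM (1477 to 1606, 172 barcodes) in mock. The log2 ratio was 1.0 (0.77 to 1.23) for AAV-sgBaat over AAV-sgSCR, where 10.4% of genes were past 2-fold (0.63, -0.02 to 1.28, with barcodes thinned to 1000 UMIs), and -2.19 (-2.35 to -2.04) for AAV-sgSCR over mock, where 19.8% were. In this class 1 library also carried hepatocyte RNA, with a summed hepatocyte panel (6 genes) of 5 CPM in AAV-sgBaat, 1442 in AAV-sgSCR and 16.2 in mock; its part in the Ccl4 values was not tested. Ccl4 UMIs per Ccl3 UMI numbered 16.9 (10.2 to 29.9) in AAV-sgBaat, 15.6 (10.4 to 24.5) in AAV-sgSCR and 14.7 (12.4 to 17.5) in mock. The same ratio in CD8 T cell-like barcodes was 2.7 in AAV-sgBaat, 2.46 in AAV-sgSCR and 2.83 in mock, and in basophil and mast cell-like barcodes 0.974 in AAV-sgBaat and 0.774 in AAV-sgSCR. In neutrophil-like barcodes it was 0.513 in AAV-sgBaat and 0.353 in AAV-sgSCR. The balance of these neighbouring genes thus differed between classes by more than their counting intervals in both AAV libraries, with Ccl4 foremost in plasmacytoid dendritic cell-like and Ccl3 in neutrophil-like barcodes.

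Basophil and mast cell-like barcodes had 3578 CPM of Ccl4 (3412 to 3749) in AAV-sgBaat and 817 CPM (756 to 881) in AAV-sgSCR, a log2 ratio of 2.13 (2.00 to 2.26). That direction did not hold among barcodes with at least 100 panel UMIs, where Ccl4 was 1599 CPM in AAV-sgBaat against 1829 CPM in AAV-sgSCR, a log2 ratio of -0.19 (-0.40 to 0.01). With thinned barcodes of the whole class it was 1.45, and 1.48 without barcodes above the 98th percentile. Macrophage-like barcodes had 582 CPM (525 to 644) in AAV-sgBaat and 309 CPM (262 to 363) in AAV-sgSCR, a log2 ratio of 0.91 (0.64 to 1.20). Across 16 classes, Ccl4 had an interval above 0 in 12 and below 0 in 0 for AAV-sgBaat over AAV-sgSCR. Of the 2564 genes measured in at least 16 classes, 0.897% had an interval above 0 in at least 12. Against mock, the interval was above 0 in 4 and below 0 in 5 of 10 classes for AAV-sgBaat, and above 0 in 2 and below 0 in 6 of 10 for AAV-sgSCR. Of genes measured in at least 10 classes, 14.3% and 10.2% had at least as many intervals below 0 in these comparisons.

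**Figure D3:**
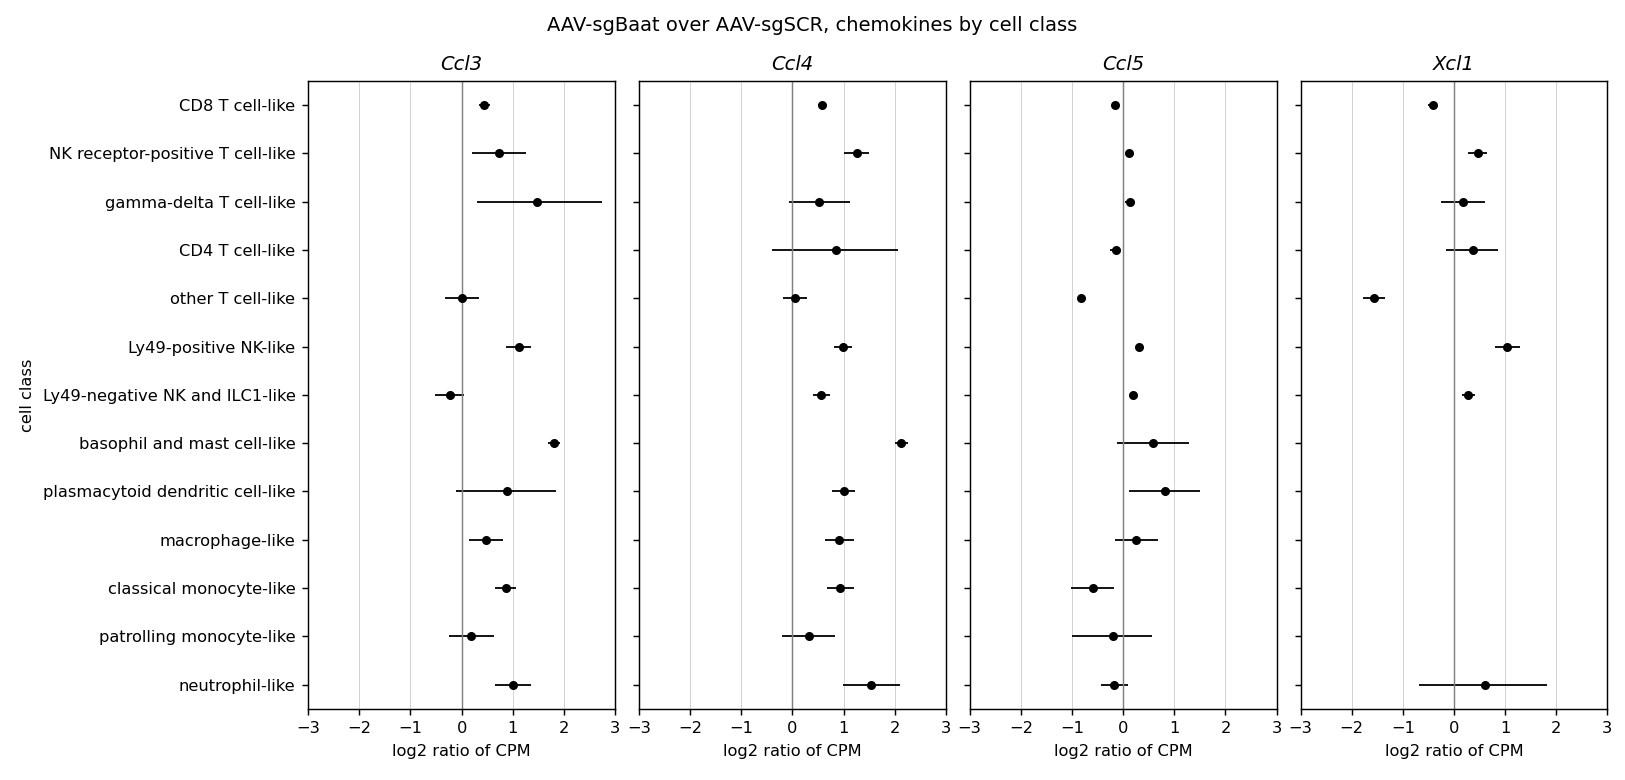
Log2 ratio of CPM, AAV-sgBaat over AAV-sgSCR (horizontal axes), for each chemokine by cell class (vertical axis), with exact 95% counting intervals; a class is drawn with at least 50 barcodes in both libraries and at least 20 UMIs of the gene, and the immature T cell-like, granulocyte precursor-like and B cell-like classes are not drawn. Ccl3 and Ccl4 points lie at or right of 0 except Ccl3 in Ly49-negative NK and ILC1-like barcodes at -0.23, and Ccl5 and Xcl1 points lie on both sides.

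Ccl3 and Ccl4 were often found in the same cells, while Ccl4 was rare in neutrophil-like barcodes. Among CD8 T cell-like barcodes with Ccl3, Ccl4 was present in 81.8% in AAV-sgBaat, 81% in AAV-sgSCR and 85.9% in mock, against 29.1%, 36.6% and 17.7% of those without Ccl3. The gap remained when barcodes were thinned to 1000 UMIs, at 62.1% against 20.4% in AAV-sgBaat, 55.6% against 22.2% in AAV-sgSCR and 73.7% against 13.3% in mock. In basophil and mast cell-like barcodes Ccl4 was present in 89.3% of Ccl3-positive and 26.7% of Ccl3-negative barcodes in AAV-sgBaat, and in 80% and 23.1% in AAV-sgSCR. Macrophage-like barcodes with Ccl3 held Ccl4 in 59.6% in AAV-sgBaat and 56.7% in AAV-sgSCR, against 23.0% and 8.7% of those without. Of neutrophil-like barcodes with Ccl3, 6 of 38 in AAV-sgBaat and 5 of 49 in AAV-sgSCR held Ccl4 (15.8% and 10.2%). Of those without Ccl3, 2.54% in AAV-sgBaat and 3.69% in AAV-sgSCR held Ccl4, so the share was higher with Ccl3 there too. Xcl1 and Ccl4 were less tied in CD8 T cell-like barcodes: Ccl4 was present in 55% of Xcl1-positive and 39.1% of Xcl1-negative barcodes in AAV-sgBaat, in 52.2% and 51.9% in AAV-sgSCR, and in 62.2% and 24.3% in mock.

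Ccl5, a lasting product of memory and effector lymphocytes, was close to even across the libraries in NK cells. In Ly49-positive NK-like barcodes it stood at 17176 CPM (16732 to 17630.1) in AAV-sgBaat, 13891 CPM (13554 to 14234) in AAV-sgSCR and 15618 CPM (15433 to 15805) in mock, and every barcode of this class held it. Ly49-negative NK and ILC1-like barcodes had 11533 CPM (11222 to 11850.0) in AAV-sgBaat, 10086 CPM (9866 to 10309) in AAV-sgSCR and 11165 CPM (10902 to 11433) in mock. The AAV-sgBaat over AAV-sgSCR log2 ratios were 0.31 (0.25 to 0.36) and 0.19 (0.14 to 0.24) in the Ly49-positive and Ly49-negative classes, small beside those of Ccl3 and Ccl4 in the Ly49-positive class.

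In CD8 T cell-like barcodes Ccl5 was lower in AAV-sgBaat than in AAV-sgSCR, unlike Ccl3 and Ccl4. Its level was 9910.0 CPM (9806 to 10015) in AAV-sgBaat, 11020.5 CPM (10956 to 11085) in AAV-sgSCR and 8128 CPM (8034 to 8222) in mock, a log2 ratio of -0.15 (-0.17 to -0.14) for AAV-sgBaat over AAV-sgSCR. At 1000 UMIs a barcode, 71.6% of these cells held Ccl5 in AAV-sgBaat, 80.6% in AAV-sgSCR and 45% in mock (80.3%, 88.8% and 53.8% before thinning). The B cell-like share before thinning was 14.6%, 26.3% and 10.2%, with 84.1, 84.8 and 32.3 CPM, so CD8 T cell-like barcodes stood 118-fold, 130-fold and 252-fold above that background. The order AAV-sgBaat below AAV-sgSCR did not hold when mixed-lineage barcodes were kept in the class, at a log2 ratio of 0.0081 (-0.01 to 0.02).

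CD4 T cell-like barcodes, helper cells, had 2726 CPM of Ccl5 (2563 to 2896) in AAV-sgBaat, 3025 CPM (2906 to 3147) in AAV-sgSCR and 912 CPM (876 to 949) in mock. NK receptor-positive T cell-like barcodes had 12102 CPM (11710.2 to 12504) in AAV-sgBaat, 11169.6 CPM (10915 to 11429) in AAV-sgSCR and 6752 CPM (6644 to 6860.5) in mock. In both classes the AAV libraries stood above mock. The log2 ratio of AAV-sgBaat over AAV-sgSCR was 0.12 in the NK receptor-positive class and spans 0 with barcodes thinned to 1000 UMIs, at 0.018 (-0.09 to 0.13). Migratory dendritic cell-like barcodes, dendritic cells with Ccr7 and Fscn1 that move to lymph nodes, were too few to compare in AAV-sgBaat, where 5 barcodes held 3 Ccl5 UMIs, and in mock, where there was 1. In AAV-sgSCR, 110 such barcodes had 4633 CPM (4520.3 to 4747) and 81.8% held Ccl5. That was 92.5-fold the level of cDC1-like barcodes in the same library (50.1 CPM). For AAV-sgBaat over AAV-sgSCR, Ccl5 had an interval above 0 in 6 and below 0 in 5 of 16 classes. Of genes measured in at least 16 classes, 7.84% had at least 6 above 0 and 8.97% at least 5 below 0.

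Xcl1, the ligand that attracts XCR1-bearing dendritic cells, was highest in Ly49-negative NK and ILC1-like barcodes in each library. It stood there at 1977 CPM (1850.0 to 2111) in AAV-sgBaat, 1627 CPM (1539 to 1718) in AAV-sgSCR and 1944 CPM (1835 to 2058) in mock, and 80.2%, 80.6% and 89.6% of barcodes held it. Ly49-positive NK-like barcodes had 1066 CPM (957 to 1184) in AAV-sgBaat, 518 CPM (455 to 588) in AAV-sgSCR and 682 CPM (644 to 722) in mock. The Ly49-negative class thus stood 1.86-fold above the Ly49-positive class in AAV-sgBaat, 3.14-fold in AAV-sgSCR and 2.85-fold in mock, opposite to Ccl3, which stood 3.22-fold, 1.26-fold and 2.07-fold higher in the Ly49-positive class. AAV-sgBaat over AAV-sgSCR gave a log2 ratio for Xcl1 of 1.04 (0.80 to 1.28) in the Ly49-positive class and 0.28 (0.16 to 0.41) in the Ly49-negative class. The Ly49-negative ratio spans 0 with barcodes thinned to 1000 UMIs, at 0.072 (-0.18 to 0.33), and without barcodes holding a macrophage panel UMI, at 0.13 (-0.0011 to 0.26).

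T cells with NK receptors came next for Xcl1, with 1293 CPM (1167 to 1429) in AAV-sgBaat, 935 CPM (863 to 1013) in AAV-sgSCR and 1067 CPM (1024 to 1110.4) in mock. In CD8 T cell-like barcodes the order of the AAV libraries was turned, at 368 CPM (348 to 388) in AAV-sgBaat, 491 CPM (478 to 505) in AAV-sgSCR and 158 CPM (145 to 171) in mock. The log2 ratio was -0.42 (-0.51 to -0.33) for AAV-sgBaat over AAV-sgSCR, which was not past 2-fold. Against mock it was 1.22 (1.08 to 1.37) for AAV-sgBaat, where 14.4% of genes were past 2-fold, and 1.64 (1.51 to 1.77) for AAV-sgSCR, where 16.6% were. Both AAV libraries were therefore past 2-fold above mock for Xcl1 in these cells. Thinned to 1000 UMIs, Xcl1 was seen in 14.8% of CD8 T cell-like barcodes in AAV-sgBaat, 22.9% in AAV-sgSCR and 7.01% in mock (25.6%, 42.4% and 14.7% before thinning). B cell-like barcodes held it in 0.256%, 1.11% and 0.484%, which is 1, 19 and 14 UMIs.

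T cell-like barcodes assigned to no other T cell class (other T cell-like) include those with UMIs of both the CD4 and CD8 panels. They also include those with UMIs of neither panel, and the number of each kind is not given here. They had 143 CPM of Xcl1 (125 to 162, 686 barcodes) in AAV-sgBaat, 423 CPM (391 to 457, 306 barcodes) in AAV-sgSCR and 119 CPM (103 to 136, 332 barcodes) in mock. A single AAV-sgSCR barcode held 252 of the 644 Xcl1 UMIs there (39.1%). Without the barcode with the most Xcl1 in each library the levels were 132 CPM in AAV-sgBaat and 259 CPM in AAV-sgSCR, and the log2 ratio was -0.97 (-1.21 to -0.72) in place of -1.56. Their median depth was 1827 UMIs in AAV-sgBaat, 4110 in AAV-sgSCR and 4791.5 in mock, and their macrophage panel sum 296, 32.2 and 2.3 CPM; the part of either in the ratio was not tested. Xcl1 in basophil and mast cell-like barcodes was 0 UMIs in AAV-sgBaat against 2 in AAV-sgSCR, so cells rich in Ccl3 and Ccl4 lacked it at this depth. For AAV-sgBaat over AAV-sgSCR, Xcl1 had an interval above 0 in 3 and below 0 in 3 of 10 classes, as many as 14.6% of genes measured in at least 10 classes had above 0 and 19% below 0.

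CD8 T cell-like barcodes were also split by surface protein, because CD90.1 and CD90.2 are allelic forms of Thy1 that mark cells of different mouse strains. The CD90 antibodies were read through these 15-base oligos.
CD90.1: agtatgggatgcaat
CD90.2: ccgatcagccgttta
Barcodes with at least 100 UMIs of both tags together were assigned to the higher one, a rule taken from earlier work on these data. CD90.1-dominant barcodes were 462 of the CD8 T cell-like barcodes (53.3%) in AAV-sgBaat, 1084 (60.5%) in AAV-sgSCR and 12 (2.16%) in mock. CD90.2-dominant barcodes numbered 373 in AAV-sgBaat, 686 in AAV-sgSCR and 527 in mock.

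CD90.1-dominant CD8 T cell-like barcodes had a higher CPM of all 4 chemokines than CD90.2-dominant ones of the same library. The ratio within AAV-sgBaat was 2.74-fold for Ccl3, 2.03-fold for Ccl4, 1.71-fold for Ccl5 and 1.5-fold for Xcl1. Within AAV-sgSCR it was 3.8-fold for Ccl3, 2.81-fold for Ccl4, 1.42-fold for Ccl5 and 2.32-fold for Xcl1. All 8 log2 intervals lay above 0, as did 25.6% of genes in AAV-sgBaat and 30.6% in AAV-sgSCR. The share of cells with a gene did not always follow: in AAV-sgBaat Xcl1 was present in 21.6% of CD90.1-dominant against 29.2% of CD90.2-dominant barcodes (12.8% and 15.5% when thinned to 1000 UMIs), and Ccl5 in 78.1% against 81.8% (71.2% and 72.4%). In AAV-sgSCR Xcl1 was present in 47.5% against 33.1%, and Ccl5 in 87.8% against 90.5%. By contrast Ifng, the gene for interferon-gamma, stood at 88.2 CPM in CD90.1-dominant against 185 CPM in CD90.2-dominant barcodes in AAV-sgBaat, and at 135 against 122 CPM in AAV-sgSCR, where the interval spans 0.

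Between the AAV libraries, the CD90.1-dominant barcodes had 413 CPM of Ccl3 (383 to 444) in AAV-sgBaat and 296 CPM (283 to 310.5) in AAV-sgSCR. Ccl4 there was 1014 CPM (967 to 1063) in AAV-sgBaat and 694 CPM (674 to 716) in AAV-sgSCR, and Xcl1 418 CPM (388 to 450.4) and 621 CPM (601 to 641). Ccl5 did not separate the 2 libraries, at 12530.0 CPM (12362 to 12699) in AAV-sgBaat and 12526 CPM (12437 to 12615.5) in AAV-sgSCR. The log2 ratios for AAV-sgBaat over AAV-sgSCR were 0.48 (0.35 to 0.60) for Ccl3, 0.55 (0.46 to 0.63) for Ccl4 and -0.57 (-0.69 to -0.45) for Xcl1, where 13.3% of genes were past 2-fold. Thus Ccl3 and Ccl4 were higher and Xcl1 was lower in the same set of cells.

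Among CD90.2-dominant CD8 T cell-like barcodes, Ccl3 was 151 CPM (133 to 170.4) in AAV-sgBaat, 77.9 CPM (69.4 to 87.2) in AAV-sgSCR and 147 CPM (134 to 159.9) in mock. Ccl4 was 500.5 CPM (467 to 535) in AAV-sgBaat, 248 CPM (232 to 264) in AAV-sgSCR and 428 CPM (406 to 450.0) in mock. For both genes AAV-sgSCR was the low library, and for Ccl3 the AAV-sgBaat and mock intervals overlap. Xcl1 instead was 278 CPM (254 to 305) in AAV-sgBaat and 268 CPM (252 to 285) in AAV-sgSCR, against 130.1 CPM in mock. The log2 ratio of AAV-sgBaat over AAV-sgSCR was 0.95 (0.71 to 1.20) for Ccl3, 1.02 (0.88 to 1.15) for Ccl4, -0.27 (-0.30 to -0.24) for Ccl5 and 0.06 (-0.10 to 0.21) for Xcl1, where 4.26% of genes were past 2-fold. The share of these barcodes with Ccl4 ran the other way, at 29.5% in AAV-sgBaat against 36.4% in AAV-sgSCR (15.3% and 18.1% when thinned), and that with Ccl3 was 12.3% against 15.3% (7.24% and 6.85% when thinned). These sums can also rest on few cells. Among all CD8 T cell-like barcodes of AAV-sgBaat, the single highest held 117 UMIs of Ccl3 and 295 of Ccl4. The CD90.2-dominant barcodes of that library held 256 and 850 in all. The tag of those highest barcodes is not given here, and ratios by tag without them were not computed. The 12 CD90.1-dominant barcodes of mock are under the 50-barcode minimum and were not compared.

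**Figure D4:**
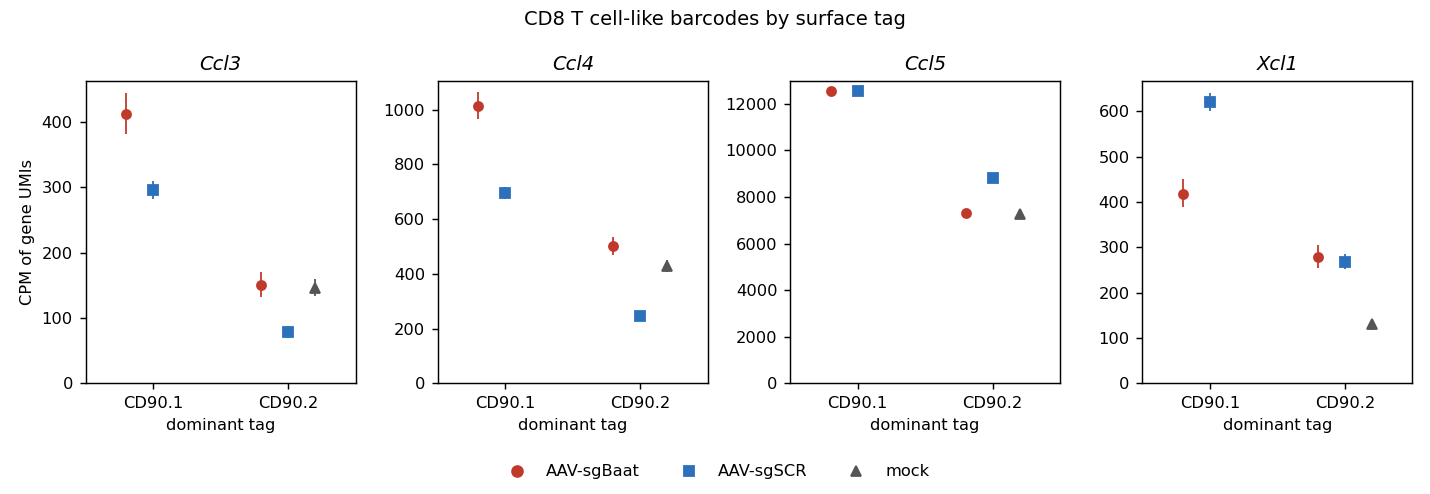
CPM of each chemokine (vertical linear axes) in CD8 T cell-like barcodes by dominant surface tag (horizontal axis) in AAV-sgBaat (circles), AAV-sgSCR (squares) and mock (triangles, CD90.2 only), with exact Poisson 95% intervals for counting error. Ccl3 and Ccl4 of AAV-sgBaat lie above those of AAV-sgSCR for both tags, Xcl1 lies lower in AAV-sgBaat for CD90.1, and the CD90.1 points of Ccl5 coincide.

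Ccr1, the receptor for CCL3 and CCL5, was led among the named classes by neutrophil-like barcodes, which held 29.8% of its UMIs in AAV-sgBaat, 42.6% in AAV-sgSCR and 33.9% in mock. The mixed-lineage set held 46.5%, 35.9% and 25% in the same order. Neutrophil-like barcodes had 262 CPM (239 to 286, 431 barcodes) in AAV-sgBaat and 338 CPM (322 to 354, 863 barcodes) in AAV-sgSCR, and the 11 such barcodes of mock had 42 UMIs. Ccr1 was found in 57.1% of them in AAV-sgBaat and 74.2% in AAV-sgSCR, but in 29.5% and 31.1% at 1000 UMIs a barcode, against 0.256% and 0.418% of B cell-like barcodes before thinning. The log2 ratio was -0.37 (-0.52 to -0.22), within 2-fold, and it spans 0 with barcodes thinned to 1000 UMIs, at -0.18 (-0.45 to 0.09).

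Classical monocyte-like barcodes had 67.8 CPM of Ccr1 (55.5 to 82.0, 292 barcodes) in AAV-sgBaat, 149 CPM (137 to 163, 446 barcodes) in AAV-sgSCR and 17.7 CPM (8.09 to 33.6, 60 barcodes) in mock. The 3 intervals are apart, and AAV-sgBaat over AAV-sgSCR gave a log2 ratio of -1.14 (-1.45 to -0.83), past 2-fold, as were 5.57% of 9054 genes. The log2 ratio over mock was 1.94 (0.96 to 3.11) for AAV-sgBaat and 3.07 (2.14 to 4.21) for AAV-sgSCR, from 9 UMIs in mock. The share of all genes past 2-fold was not counted for this class against mock. Neutrophil-like barcodes stood 3.86-fold above classical monocyte-like ones in AAV-sgBaat and 2.26-fold in AAV-sgSCR. In the same monocytes the CCR1 ligand gene Ccl3 stood above AAV-sgSCR in AAV-sgBaat, whereas the other, Ccl5, was lower, at 40.3 CPM (31.0 to 51.6) in AAV-sgBaat against 60.5 CPM (52.6 to 69.3) in AAV-sgSCR. Those Ccl5 levels are under the B cell-like levels of both libraries given above.

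Macrophage-like barcodes had 112 CPM of Ccr1 (87.7 to 141) in AAV-sgBaat and 131 CPM (101 to 167) in AAV-sgSCR, and these overlap. Basophil and mast cell-like barcodes had 112 CPM (84.5 to 146) in AAV-sgBaat and 73.2 CPM (55.9 to 94.3) in AAV-sgSCR, a log2 ratio of 0.62. The share of barcodes with Ccr1 ran the other way, at 28.6% in AAV-sgBaat against 48.5% in AAV-sgSCR, and thinned to 1000 UMIs the log2 ratio was -1.13 (-2.65 to 0.32), from 8 UMIs against 11. Patrolling monocyte-like barcodes, which survey the vessel wall, had 4 Ccr1 UMIs in AAV-sgBaat against 25 in AAV-sgSCR, a log2 ratio of -2.15 (-4.13 to -0.61). The share of all genes past 2-fold was not counted in that class. In NK classes Ccr1 was 0 or 1 UMI in each library. CD8 T cell-like barcodes had 22 Ccr1 UMIs in AAV-sgBaat, 13 in AAV-sgSCR and 1 in mock, and 8, 8 and 1 without barcodes holding a macrophage panel UMI.

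Xcr1, the receptor for XCL1, was read mainly from cDC1-like barcodes, a class defined without it, and the mixed-lineage set held 26.1% of its UMIs in AAV-sgBaat, 23% in AAV-sgSCR and 21.9% in mock. In cDC1-like barcodes Xcr1 stood at 251 CPM (196 to 316) in 30 barcodes of AAV-sgBaat, 342 CPM (321 to 365) in 186 of AAV-sgSCR and 173 CPM (135 to 219) in 23 of mock. An Xcr1 UMI was present in 46.7% of them in AAV-sgBaat, 74.7% in AAV-sgSCR and 60.9% in mock, at median depths of 9116.5, 14276 and 15719 UMIs, and in 16.7%, 25.8% and 17.4% at 1000 UMIs a barcode. B cell-like barcodes had 1 Xcr1 UMI in AAV-sgBaat, 0 in AAV-sgSCR and 5 in mock. With 30 and 23 barcodes, AAV-sgBaat and mock are under the minimum for a ratio. Migratory dendritic cell-like barcodes of AAV-sgSCR had 57.5 CPM (45.6 to 71.6), 5.95-fold less than cDC1-like barcodes, and 93.8% of those UMIs lay in the 10% of barcodes with the most.

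In AAV-sgBaat 30 cDC1-like barcodes held 71 of the 111 Xcr1 UMIs. In AAV-sgSCR 186 held 930 of 1331, and in mock 23 held 70 of 105. Such sums depend on how many barcodes the class has. Xcl1 had 0 UMIs in cDC1-like barcodes of AAV-sgBaat, 2 in AAV-sgSCR and 1 in mock. In Ly49-negative NK and ILC1-like barcodes, the class that led Xcl1, Xcr1 had 0 UMIs in AAV-sgBaat, 0 in AAV-sgSCR and 4 in mock, and it had 0 in Ly49-positive NK-like barcodes of all 3. In plasmacytoid dendritic cell-like barcodes Xcr1 was 0 UMIs in all 3 libraries as well.

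**Figure D5:**
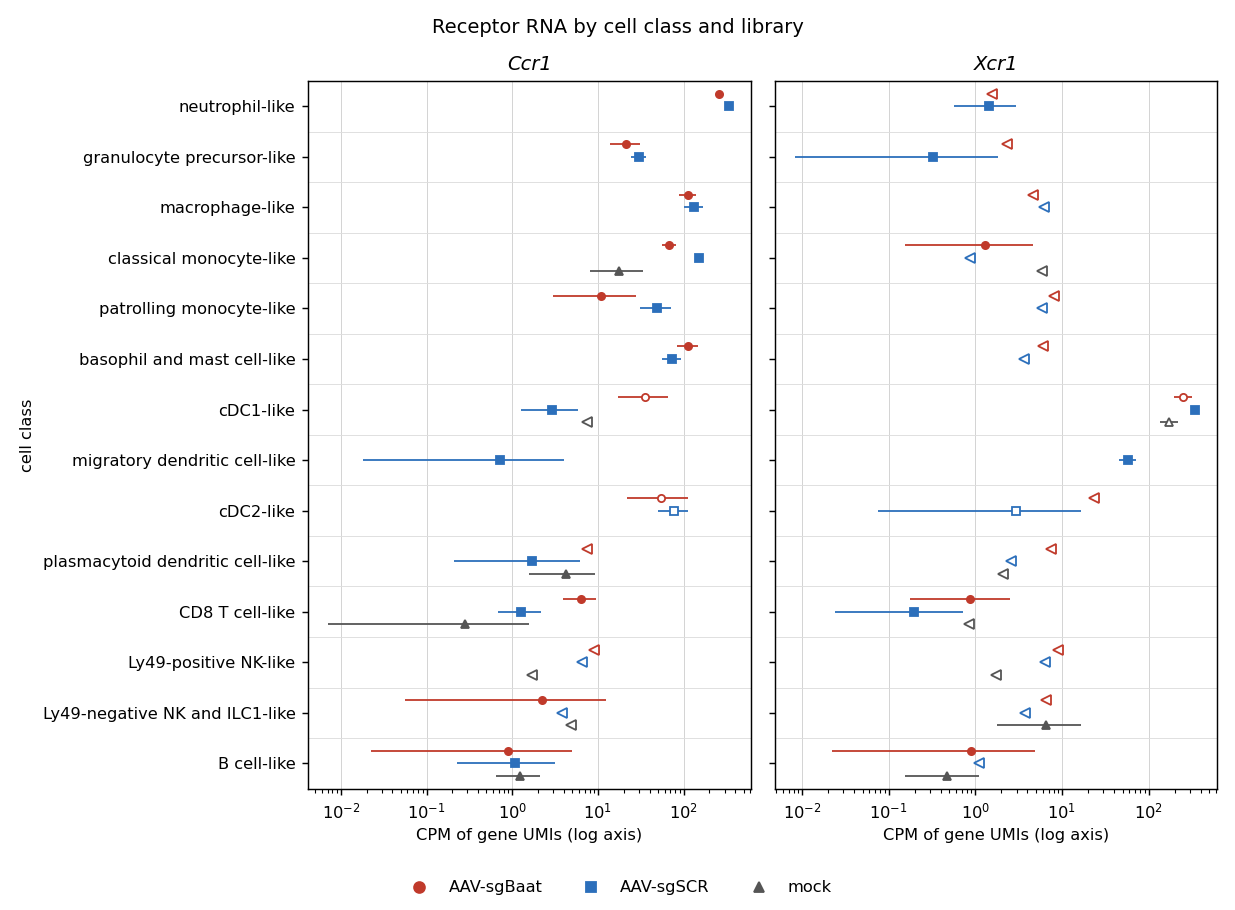
CPM of Ccr1 and Xcr1 (horizontal log axes) by cell class with at least 20 barcodes (vertical axis) in AAV-sgBaat (circles), AAV-sgSCR (squares) and mock (triangles); hollow symbols stand for fewer than 50 barcodes, bars are exact Poisson 95% counting intervals, and open left-pointing triangles mark 0 UMIs drawn at 3 UMIs. Ccr1 is highest in neutrophil-like barcodes and Xcr1 in cDC1-like barcodes, at 251 CPM in AAV-sgBaat, 342 in AAV-sgSCR and 173 in mock.

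Other genes of the pathway were read from lists of other CC chemokines, of cytokines and of genes induced on activation. Among the other CC chemokines, 3 of 6 were measured in CD8 T cell-like barcodes, and the intervals of all 3 lay above 0 for AAV-sgBaat over AAV-sgSCR, in a comparison where 16.6% of genes had an interval above 0. Ccl6 was 43.9 CPM in AAV-sgBaat against 10.7 in AAV-sgSCR, Ccl9 31 and 3.16, and Ccl7 8.6 and 0.0986 (1 UMI), chemokines mostly of macrophages and other myeloid cells. They moved with the macrophage panel given above in that class, and its part in their levels was not tested. In classical monocyte-like barcodes, by contrast, Ccl6 was 737 CPM in AAV-sgBaat against 884 in AAV-sgSCR.

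Of the cytokines made beside these chemokines, Ifng stood at 134 CPM in AAV-sgBaat against 129 in AAV-sgSCR in CD8 T cell-like barcodes. That sum joins opposite differences, since the log2 ratio of AAV-sgBaat over AAV-sgSCR was -0.61 (-0.87 to -0.36) in CD90.1-dominant and 0.60 (0.39 to 0.81) in CD90.2-dominant barcodes.

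Among 6 genes induced on activation, Nr4a1, an early response gene downstream of the antigen receptor, lay above AAV-sgSCR in AAV-sgBaat in most classes. Its interval was above 0 in 11 and below 0 in 1 of 13 classes, where 0.835% of genes measured in at least 13 classes had at least 11 above 0. The ratio ran from -1.02 in macrophage-like to 1.83 in other T cell-like barcodes on the log2 scale. In Ly49-positive NK-like barcodes it was 91.1 CPM in AAV-sgBaat against 28 in AAV-sgSCR, and in CD8 T cell-like barcodes 28.1 and 12.8 CPM, against 38.9 in mock. Against mock it was below 0 in 7 of 10 classes for AAV-sgBaat and in 9 of 10 for AAV-sgSCR, and 5.8% and 1.93% of genes measured in at least 10 classes had at least as many. In Ly49-negative NK and ILC1-like barcodes Nr4a1 was 59.6 CPM in AAV-sgBaat against 30.2 in AAV-sgSCR. The rest of the list was mixed for AAV-sgBaat over AAV-sgSCR. Intervals above and below 0 were found in 1 and 3 of 9 classes for Nr4a2 and 0 and 1 of 5 for Nr4a3. For Egr1 they were 7 and 2 of 16, for Nfkbia 9 and 2 of 16, and for Egr2 0 and 0 of 1. In CD8 T cell-like barcodes 2 of the 6 genes had an interval above 0 and 1 below, where 16.6% and 15% of genes did.

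Across 44 class-by-library points with at least 50 barcodes, the genes most like each member in log2(CPM + 1) were named by Pearson r among 6158 genes. The points share libraries and depth, so the values are a description. Ccl3 and Ccl4 were each other's closest gene (r = 0.867), followed by Tnfsf12 (0.808) for Ccl3 and Os9 (0.821) for Ccl4. Ccl5 was closest to Il2rb (0.947), the beta chain of the interleukin-2 receptor, with Xcl1 at 0.925. Xcl1 was closest to Ctsw (0.970), a protease of cytotoxic cells. Ccr1 was closest to C5ar1 (0.939), the complement C5a receptor of neutrophils and monocytes, and Xcr1 to Gpr141b (0.898). By Spearman rank correlation C5ar1 stayed first for Ccr1 (0.896). For Xcr1 another gene was first, at 0.519, and Gpr141b was not among the first 5. cDC1-like barcodes, which held most Xcr1, reached 50 barcodes in AAV-sgSCR alone. Ccl3 and Ccl5 had r = 0.251, so the 2 CCR1 ligands were less alike than Ccl5 and Xcl1.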

How the data were processed

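Sorted CD45hi liver immune cells were profiled in 3 droplet mRNA libraries, 1 per group, each a pool of 3 tumor samples. The deposited values are raw UMI counts per gene and barcode, made with Cell Ranger 6.0.1 on mm10 per the file headers and the submitters' processing notes. Antibody tag counts (3 features) sit in the same matrices, and the tag oligos come from the deposited feature reference. The tag features are named Thy1.1, Thy1.2 and F4.80 in the matrices while the labels name a hashtag for the last, so only the CD90 tags were used.

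Barcodes with at least 500 genes, at least 1000 gene UMIs and at most 10% mitochondrial UMIs were assigned to 22 classes from summed marker UMIs, at thresholds set after the marker distributions were seen. Barcodes passing panels of several lineages formed a class of their own, and no doublet caller was used in the values reported. The members and gene lists were chosen with earlier results of these data known. The gene names in the text follow a rule: the members, the lists, and for each member genes among the 5 with the highest Pearson r.

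UMIs were summed per class and library and divided by the class's gene UMIs (CPM). Levels carry exact Poisson and shares exact Clopper-Pearson 95% intervals, and ratios exact conditional binomial intervals, all for counting error only. Floors for 0 UMIs are 3 UMIs. Ratios needed at least 50 barcodes in both libraries, and counts over classes or genes at least 20 UMIs over both libraries. Shares were repeated after thinning each barcode to 1000 UMIs. The ratio code was tested on simulated counts. There are 12 alternative settings, 4 of them chosen after seeing the data (T and NK cell barcodes without macrophage panel UMIs, 2 stricter basophil panels, and leaving out the barcode with the most UMIs of a gene). Python 3.11.15, numpy 2.4.6, scipy 1.17.1, pandas 2.3.3, scanpy 1.11.5 and matplotlib 3.10.9 were used. Protein and some promoter sequences were not used here, and 1 list of the pathway is not reported here.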

Additional observations from a re-analysis of the deposited data

Results flagged for a closer look

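For 3 genes the ratio of AAV-sgBaat over AAV-sgSCR ran in opposite directions in different cell classes. Each counting interval excluded 0 in the values as counted. How many of all genes ran in opposite directions was not counted, so this is not shown to be particular to these genes. Intervals that exclude 0 were common: in CD8 T cell-like barcodes 16.6% of genes had one above 0 and 15% one below. The differences between classes were not tested, and with 1 library a group there is no replicate spread. Classes were kept where the gene's CPM in at least 1 library was 10 or more times the B cell-like level of that library.

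For Ccl5 the log2 ratio was -0.15 in CD8 T cell-like, -0.15 in CD4 T cell-like and -0.82 in other T cell-like barcodes. It was 0.13 in gamma-delta T cell-like, 0.12 in NK receptor-positive T cell-like, 0.31 in Ly49-positive NK-like and 0.19 in Ly49-negative NK and ILC1-like barcodes. With barcodes thinned to 1000 UMIs the gamma-delta ratio turned to -0.050 (-0.25 to 0.15), the NK receptor-positive one was 0.018 (-0.09 to 0.13) and the CD4 one -0.18 (-0.36 to 0.0014), all spanning 0. The CD4 and CD8 ratios turned to 0.036 and 0.0081 with mixed-lineage barcodes kept, and the Ly49 classes kept intervals above 0 when thinned (0.15 in the Ly49-positive class).

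Xcl1 had log2 ratios of -0.42 in CD8 T cell-like and -1.56 in other T cell-like barcodes, against 0.47 in NK receptor-positive T cell-like, 1.04 in Ly49-positive NK-like and 0.28 in Ly49-negative NK and ILC1-like barcodes. The -1.56 rests in part on 1 AAV-sgSCR barcode with 252 of 644 UMIs and was -0.97 (-1.21 to -0.72) without the barcode with the most Xcl1 in each library. The 0.28 spans 0 when barcodes are thinned to 1000 UMIs, at 0.072 (-0.18 to 0.33).

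Ccr1 had log2 ratios of -0.37 in neutrophil-like, -1.14 in classical monocyte-like and -2.15 in patrolling monocyte-like barcodes, and of 0.62 in basophil and mast cell-like and 2.36 in other T cell-like barcodes. The basophil and mast cell-like ratio was 0.037 (-0.52 to 0.60) without barcodes above the 98th percentile of gene UMIs and turned to -1.13 (-2.65 to 0.32) when thinned, so its direction did not hold. The neutrophil-like ratio spans 0 when thinned, at -0.18 (-0.45 to 0.09). The other T cell-like ratio turned to -0.54 (-0.84 to -0.25) with mixed-lineage barcodes kept. It rests on 28 UMIs in AAV-sgBaat against 5 in AAV-sgSCR, in a class whose macrophage panel sum was 296 CPM in AAV-sgBaat against 32.2 in AAV-sgSCR; the part of that difference was not tested.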

How the results depend on the processing

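All values below are log2 ratios of AAV-sgBaat over AAV-sgSCR. Of 302 alternative values for 32 ratios, 239 stayed within the counting interval of the reported value, 57 left it with no turn of a called direction and 6 turned. In 18 of them, over 11 ratios, an interval that excluded 0 came to span it. With mixed-lineage barcodes kept, Ccl3, Ccl4, Ccl5 and Xcl1 in CD8 T cell-like barcodes were 0.91, 0.93, 0.0081 (turned) and -0.17, Ccl4 in Ly49-negative NK and ILC1-like barcodes 0.74, and Ccl3 and Ccl4 in basophil and mast cell-like barcodes 2.16 and 2.53. At most 5% mitochondrial UMIs gave 0.30, 0.37 and -0.30 for Ccl3, Ccl4 and Ccl5 in CD8 T cell-like barcodes. Thinning to 1000 UMIs gave 0.38, -0.27 and -0.56 for Ccl4, Ccl5 and Xcl1 there, 0.64 for Ccl4 in Ly49-positive NK-like barcodes, 0.21 and 0.072 for Ccl4 and Xcl1 in the Ly49-negative class, 0.92 and 1.45 for Ccl3 and Ccl4 in basophil and mast cell-like, 0.63 for Ccl4 in plasmacytoid dendritic cell-like and -0.18 for Ccr1 in neutrophil-like barcodes. Without the highest Scrublet scores Ccl4 and Ccl5 in CD8 T cell-like barcodes were 0.65 and -0.13. Without macrophage panel UMIs (an alternative chosen after seeing the data) they were 0.51 and -0.10, and Xcl1 in the Ly49-negative class 0.13. Ccl5 in CD8 T cell-like barcodes was -0.17 with no barcode filter and -0.17 without mitochondrial and ribosomal protein genes, which left Ccl3 in basophil and mast cell-like barcodes at 1.67. In basophil and mast cell-like barcodes Ccl3 and Ccl4 were 1.15 and 1.48 without barcodes above the 98th percentile of UMIs, 1.58 and 1.74 with at least 20 panel UMIs, and 0.42 and -0.19 (turned) with at least 100, both chosen after seeing the data. Without the barcode with the most UMIs of the gene in each library (also chosen after seeing the data) Ccl3 and Ccl4 in CD8 T cell-like barcodes were 0.29 and 0.44, Ccl4 in basophil and mast cell-like 2.35 and in macrophage-like 1.21. The other values that turned were Ccl5 in CD4 T cell-like (0.036) and Ccr1 in other T cell-like barcodes (-0.54) with mixed-lineage barcodes kept, and Ccl5 in gamma-delta T cell-like (-0.050) and Ccr1 in basophil and mast cell-like barcodes (-1.13) when thinned. The causes were not tested. Thinned Ccr1 in patrolling monocyte-like barcodes had 0 UMIs in AAV-sgBaat and gives no ratio.

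No paired analysis was possible because each group has 1 mRNA library and the groups share no replicate numbers beyond that. Groups of 1 pooled library give no spread between animals, counting intervals do not cover it, and the mixed-lineage share of barcodes differed between libraries.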

Other observations

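Genes of the wider chemokine set that the report did not follow by class gave these levels. Ccl6, a myeloid chemokine, stood at 1155 CPM in AAV-sgBaat and 579.9 CPM in AAV-sgSCR in basophil and mast cell-like barcodes, and Ccl9 at 809.8 and 427 CPM. Neutrophil-like barcodes had 408 CPM of Ccl6 in AAV-sgBaat and 521 CPM in AAV-sgSCR. In NK receptor-positive T cell-like barcodes Ccl6 was 181 CPM in AAV-sgBaat and 4.6 CPM in AAV-sgSCR, in a class whose macrophage panel sum was 80.6 CPM in AAV-sgBaat, 15.3 in AAV-sgSCR and 2.3 in mock; its part in that level was not tested.

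Ifng in Ly49-negative NK and ILC1-like barcodes was 316 CPM in AAV-sgBaat and 228 CPM in AAV-sgSCR, a log2 ratio of 0.47 (0.14 to 0.79), and in other T cell-like barcodes 64 CPM in AAV-sgBaat and 163 CPM in AAV-sgSCR. Nr4a1 in patrolling monocyte-like barcodes was 426 CPM in AAV-sgBaat and 376 CPM in AAV-sgSCR, where the ratio spans 0 on the log2 scale. The 12 CD90.1-dominant CD8 T cell-like barcodes of mock held 60 UMIs of Ccl3, 148 of Ccl4, 2526 of Ccl5 and 9 of Xcl1.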
